A study of Homo sapiens with 30 samples.

Results

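The 39 interferon-stimulated genes described here are genes whose transcripts are known to rise when cells meet interferon, and they were taken as the rows whose gene name equals a listed member in the deposited count tables. All 39 have a row among the 58288 genes of the first table, and 36 have one among the 20073 genes of the second, where IFI44L, IFITM1 and HERC5 have no row. The cells were UMUC1, an established human bladder cancer line that per the series record has lost function of UTX, a histone H3 lysine 27 demethylase encoded by KDM6A, so the empty vector cells lack working UTX too. In the medium experiment (18 libraries, 6 groups of 3) cells stably carried pSIN-puro with UTX, with UTX bearing the H1146A and E1148A changes at its catalytic site (HEAA), or empty (EV), and grew either in sphere medium, which is MEM free of serum with B27 lacking vitamin A and with the growth factors EGF (20 ng/ml) and FGF2 (20 ng/ml), or in full medium, which is MEM with serum (10% FBS). In the FGFR3 experiment (12 libraries, 4 groups of 3) cells in full medium carried pBabe-puro with FGFR3 S249C or wild type FGFR3, together with pCDH-blasticidin holding UTX or empty. RNA was taken 3 days after plating in all 30 libraries. The labels number the 3 replicates of a group but do not tie them to separate cultures, and the spread behind each p-value may therefore be technical.

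Type I and type III interferons bind receptors whose kinases phosphorylate STAT proteins, and STAT2 joins IRF9 in a complex that binds the interferon-stimulated response element (ISRE) in gene promoters. Interferon gamma acts through the gamma-activated sequence (GAS), with IRF1 among the early targets. Many of the induced genes are also transcribed at a basal level without added interferon, and carcinoma cells differ widely in that level. No interferon treatment is named in the labels, so the levels here are those of cells in their medium alone.

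Totals ran from 23749352 to 40111234 counts per library in the medium experiment and from 21672408 to 28290664 in the FGFR3 experiment, which were fitted apart because kits and tables differ. KDM6A followed the labels, with 861 ± 15 CPM (counts scaled to library size, mean ± SD, n = 3) in UTX_sphere, 943 ± 15 in HEAA_sphere and 8.18 ± 0.78 in EV_sphere, and with 579 ± 13 in UTX_full, 694 ± 7.3 in HEAA_full and 17.4 ± 0.75 in EV_full. It was also at 862 CPM in UTX_FGFR3S249C and 11.6 in EV_FGFR3S249C, and at 824 in UTX_FGFR3WT and 15.8 in EV_FGFR3WT. EV_sphere replicate 2, EV_FGFR3S249C replicate 1 and UTX_FGFR3S249C replicate 3 stood apart from their group, with a chi-square per degree of freedom of at least 9.49 in the 6 replicate pairs that hold 1 of them against 2.02 to 6.03 in the other 24 pairs, and the number of the 35 tested genes called in each comparison that rests on them is also given without them. The 6 epithelial markers were detected in every group, with a summed level of 14169 to 15209 CPM in EV_sphere (most of it KRT5) against 5767 to 5980 in EV_full, and 6502 to 6719 in UTX_sphere against 3973 to 4145 in UTX_full. The 8 leukocyte and endothelial markers summed to 11.9 to 14.1 CPM in EV_sphere and 6.06 to 7.24 in EV_full, where CD3E was at 0, and to 18.9 to 19.8 in UTX_sphere and 6.88 to 7.53 in UTX_full. The 6 fibroblast markers summed to 12.1 to 13.8 CPM in EV_sphere and 44.3 to 54.2 in EV_full. All of these sums move with the medium, and their part in the results was not tested.

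Of the 39 genes, 35 had enough counts to be tested in each experiment. In the medium experiment IFITM1, IFITM2, RSAD2 and IFI44L were not tested, with group means of at most 0.0745, 0.303, 0.267 and 0.0797 CPM. In the FGFR3 experiment IFITM2 was not tested, at no more than 0.389 CPM in any group. Their absence from the tests follows from low counts, so the counts below describe the genes that passed and not the whole set. The IFITM genes are near-identical paralogs whose reads can be split, and 10 of the 39 genes have an antisense gene over an exon in GENCODE v29 (among them CMPK2 and RSAD2, which overlap each other). The sources used here do not say whether strand was used in counting, so those genes are less certain.

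Promoter windows of 300 bases around the start site were in the RefSeq table (GRCh38.p14) for 32 of the 39 genes, 31 by symbol and DDX58 by its synonym. The ISRE letters (GAAA, any 2 bases, GAAA), read on both strands, were present in 20 of these 32 windows (62.5%), against 1255 of all 35116 windows (3.57%). The GAS letters (TTC, any 3 bases, GAA) were in 10 of 32 (31.2%), against 2689 of 35116 (7.66%). At least 1 of the motifs was in 24 windows and both were in 6, where the motifs overlapped each other in 4. A match is a description of letters and not evidence of binding. Only the first listed window of each gene was read, while the shares over all windows count every window. Neither motif was in the window read for 8 genes, CMPK2, DDX58, HERC6, PARP9, RSAD2, SAMD9L, STAT2 and XAF1. Of these, CMPK2 has 3 windows and PARP9, RSAD2 and XAF1 have 2 each, so a match in their other windows is not excluded. The windows of 6 genes picked from those with a match are shown with the matching letters in capitals. These are ISRE letters in the IFIT genes, SAMD9 and OAS3 and GAS letters in IRF1.
IFIT1 (chr10:89392373-89392672, strand +): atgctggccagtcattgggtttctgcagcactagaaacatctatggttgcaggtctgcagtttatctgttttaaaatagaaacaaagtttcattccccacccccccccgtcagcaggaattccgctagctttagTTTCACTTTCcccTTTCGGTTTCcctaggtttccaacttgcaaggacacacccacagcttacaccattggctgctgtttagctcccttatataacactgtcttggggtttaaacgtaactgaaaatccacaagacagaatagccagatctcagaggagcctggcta
IFIT3 (chr10:89327747-89328046, strand +): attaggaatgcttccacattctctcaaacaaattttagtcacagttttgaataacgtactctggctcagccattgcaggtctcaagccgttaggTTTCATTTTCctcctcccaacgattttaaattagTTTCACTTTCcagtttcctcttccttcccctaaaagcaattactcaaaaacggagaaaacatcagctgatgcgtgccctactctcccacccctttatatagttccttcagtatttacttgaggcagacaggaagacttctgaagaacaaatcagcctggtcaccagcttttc
IFIT5 (chr10:89414318-89414617, strand +): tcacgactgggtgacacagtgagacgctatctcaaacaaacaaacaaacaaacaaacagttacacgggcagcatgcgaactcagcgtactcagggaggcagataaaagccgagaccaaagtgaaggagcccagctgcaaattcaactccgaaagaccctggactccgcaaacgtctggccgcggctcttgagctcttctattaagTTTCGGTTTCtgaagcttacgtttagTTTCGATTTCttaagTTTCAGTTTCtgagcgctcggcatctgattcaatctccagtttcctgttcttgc
SAMD9 (chr7:93117930-93118229, strand -): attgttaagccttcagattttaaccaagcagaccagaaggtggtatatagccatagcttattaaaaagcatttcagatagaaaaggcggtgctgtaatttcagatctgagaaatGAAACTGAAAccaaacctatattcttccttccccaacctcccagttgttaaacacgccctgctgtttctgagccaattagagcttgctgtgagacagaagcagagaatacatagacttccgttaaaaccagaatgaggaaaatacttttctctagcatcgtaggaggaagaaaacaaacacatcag
OAS3 (chr12:112938224-112938523, strand +): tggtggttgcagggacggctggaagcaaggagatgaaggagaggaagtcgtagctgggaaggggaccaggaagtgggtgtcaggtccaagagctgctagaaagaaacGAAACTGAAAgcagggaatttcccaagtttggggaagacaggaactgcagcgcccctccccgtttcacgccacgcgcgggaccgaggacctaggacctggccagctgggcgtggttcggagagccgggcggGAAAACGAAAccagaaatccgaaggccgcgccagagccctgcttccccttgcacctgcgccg
IRF1 (chr5:132490724-132491023, strand -): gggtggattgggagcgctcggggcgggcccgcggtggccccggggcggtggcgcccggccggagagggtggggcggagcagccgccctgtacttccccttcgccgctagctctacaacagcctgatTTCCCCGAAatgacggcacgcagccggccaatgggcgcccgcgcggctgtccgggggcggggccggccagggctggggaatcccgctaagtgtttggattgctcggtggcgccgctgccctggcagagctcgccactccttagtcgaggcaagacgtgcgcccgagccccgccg
The 3 IFIT windows, all from the cluster on chromosome 10, hold 2, 2 and 3 ISRE matches, SAMD9 holds 1 and OAS3 holds 2. IRF1 has a single GAS match and no ISRE match. Of the 24 genes with a window that were lower in EV_sphere than in EV_full, 14 hold ISRE letters, against 20 of all 32 genes with a window. The letters were also in 1 of the 2 higher genes, all 3 that were not called and 2 of the 3 not tested.

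Most of the set was lower in sphere medium. In EV_sphere against EV_full, 26 of 35 tested genes were lower and 3 were higher at an adjusted p under 0.05 (edgeR's quasi-likelihood test, Benjamini-Hochberg over all genes), where 32.4% of all 19629 tested genes were lower and 33.1% higher (65.5% either way). The median log2 fold change was -1.08 over the 35 genes and -0.03 over all genes. Without EV_sphere replicate 2 the counts were again 26 lower and 3 higher. The 26 lower genes of the main fit include IFI44, at no more than 0.435 CPM in any group of the medium experiment. In bulk RNA, fewer cells of a type and less RNA per cell cannot be told apart.

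The 4 IFIT genes, which encode tetratricopeptide proteins that bind viral RNA, fell furthest as a family, with a median log2 fold change of -3.91. IFIT2 had 1.54, 1.18 and 1.04 CPM in EV_sphere and 41.8, 44.2 and 43.2 in EV_full. The 2 groups do not overlap and the level in sphere medium was 34.3-fold lower (log2 fold change -5.10 ± 0.10 SE, adjusted p = 4.25e-21). Groups without overlap were common in this comparison, with 6821 of all 19629 tested genes above and 6830 below. IFIT1 had 2.10, 1.84 and 2.01 CPM in EV_sphere and 32.8, 33.0 and 33.3 in EV_full (-4.05 ± 0.09, adjusted p = 3.8e-20). IFIT3 had 4.84, 4.07 and 4.37 CPM in EV_sphere and 60.5, 59.9 and 60.2 in EV_full (-3.76 ± 0.06). IFIT5, which lies in the same cluster, fell by a smaller 2.24 ± 0.07 on the log2 scale. The order of the 4 genes by size of the fall, IFIT2, IFIT1, IFIT3 and IFIT5, is a description, since the differences between genes were not tested.

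Among the transcription factors, IRF1, which activates interferon-induced and other genes, had 11.1, 11.3 and 9.39 CPM in EV_sphere and 103, 103 and 101 in EV_full (log2 fold change -3.27 ± 0.05, adjusted p = 3.27e-22). STAT2, a subunit of the ISRE-binding complex, fell by 0.73 ± 0.05. IRF9, the DNA-binding part of that complex, went the other way, with 10.1, 12.5 and 9.91 CPM in EV_sphere and 7.30, 7.62 and 7.72 in EV_full (0.52 ± 0.10, adjusted p = 9.29e-05). IRF7, an amplifier of interferon transcription, was at or below 0.559 CPM in every library of the medium experiment and did not pass the test (0.34 ± 0.40). The 3 helicase genes DDX58 (RIG-I), IFIH1 (MDA5) and DDX60, sensors of foreign RNA or their cofactors, were all lower, by -1.73, -0.39 and -1.71.

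The effectors mostly followed the IFIT genes. SAMD9L and SAMD9, neighbours on chromosome 7 that restrict poxviruses and slow growth, differed in size. SAMD9L had 1.60, 1.98 and 1.36 CPM in EV_sphere and 27.5, 26.2 and 25.5 in EV_full (log2 fold change -4.00 ± 0.10), and SAMD9 had 26.1, 28.6 and 21.0 in EV_sphere and 121, 121 and 118 in EV_full (-2.25 ± 0.08). Of the other falling genes, CMPK2, a mitochondrial nucleotide kinase, changed by -2.99 ± 0.27, ISG15, a ubiquitin-like protein, by -1.92 ± 0.12, PARP14, an ADP-ribosyltransferase, by -1.80 ± 0.05, and EPSTI1 by -1.81 ± 0.07. XAF1, a pro-apoptotic gene, had 0.200, 1.60 and 0.874 CPM in EV_sphere and 4.50, 4.75 and 4.29 in EV_full (-2.34 ± 0.28). The 3 EV_sphere libraries of XAF1 are spread over a wide range, and the change is -3.04 without EV_sphere replicate 2. MX2 and BST2, which block retroviruses at the nuclear and the plasma membrane, fell by 1.64 and 1.56, while MX1 (-0.42 ± 0.23), HERC5, USP18, OASL and IFI27 did not pass the test. The remaining lower genes were IFITM3 (-1.08 ± 0.07), which blocks virus entry at endosomes, IFI6 (-1.01 ± 0.27), IFI35 (-1.01 ± 0.11), PARP9 (-0.83 ± 0.06), HERC6 (-0.82 ± 0.13) and IFI44 (-1.96 ± 0.64), the last at low levels and without a call by DESeq2.

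The OAS genes, whose products make oligoadenylates in answer to double-stranded RNA, did not move as one. OAS2 had 99.3, 102 and 101 CPM in EV_sphere and 33.8, 32.4 and 35.7 in EV_full, a 2.96-fold higher level in sphere medium (log2 fold change 1.57 ± 0.04, adjusted p = 7.41e-19). OAS1 (-0.50 ± 0.04) and OAS3 (-0.15 ± 0.04) were slightly lower. The third riser besides OAS2 and IRF9 was ISG20, an exonuclease, with 1.27, 1.22 and 0.745 CPM in EV_sphere and 0.708, 0.469 and 0.447 in EV_full (1.01 ± 0.24). Its levels are low and it is named because only 3 genes rose.

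**Figure D1:**
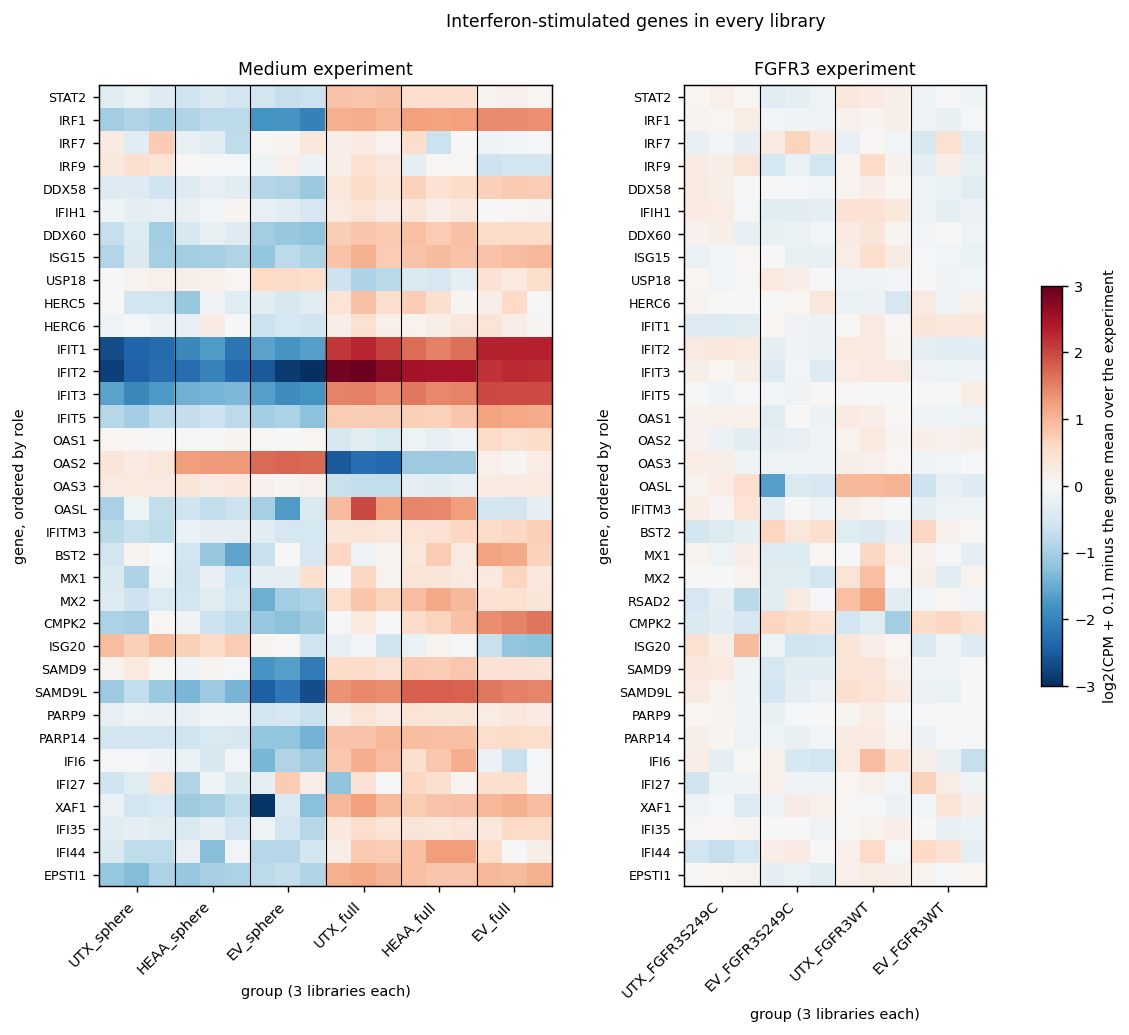
Level of each tested gene in each library as log2(CPM + 0.1) minus the gene's mean over the experiment, with genes in rows ordered by role and the 3 libraries of each group side by side (left 18 libraries of the medium experiment, right 12 of the FGFR3 experiment). Most rows are blue in the 3 sphere groups and red in the 3 full groups, OAS2 is red in the sphere groups and blue in UTX_full and HEAA_full, and the FGFR3 experiment shows smaller differences on the same colour scale.

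The fall was present with all vectors. UTX_sphere against UTX_full gave 26 of 35 genes lower and 5 higher (35.4% and 35.1% of all genes, 70.5% either way), and HEAA_sphere against HEAA_full gave 27 lower and 5 higher (36.3% and 34.4%, 70.8% either way). The medians were -1.08 and -1.14, against -0.06 and -0.07 over all genes. These 3 comparisons share no library, and 22 genes were lower in all of them, with or without EV_sphere replicate 2. The share of all tested genes that were lower in all 3 was not computed. The 22 include IFI44, at no more than 0.435 CPM in any group of the medium experiment. IFIT2 changed by -5.43 ± 0.10 in UTX cells, -4.78 ± 0.09 in HEAA cells and -5.10 ± 0.10 in EV cells. ISG20 and OAS2 were higher in all 3, OAS2 by 2.72 ± 0.06 in UTX cells and 2.36 ± 0.05 in HEAA cells. OAS1 and OAS3 were higher in sphere medium in the UTX and HEAA cells and lower in the EV cells, as with OAS3 at 207, 211 and 208 CPM in UTX_sphere against 107, 103 and 102 in UTX_full (1.00 ± 0.04), and at 188, 182 and 188 in EV_sphere against 205, 206 and 210 in EV_full.

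**Figure D2:**
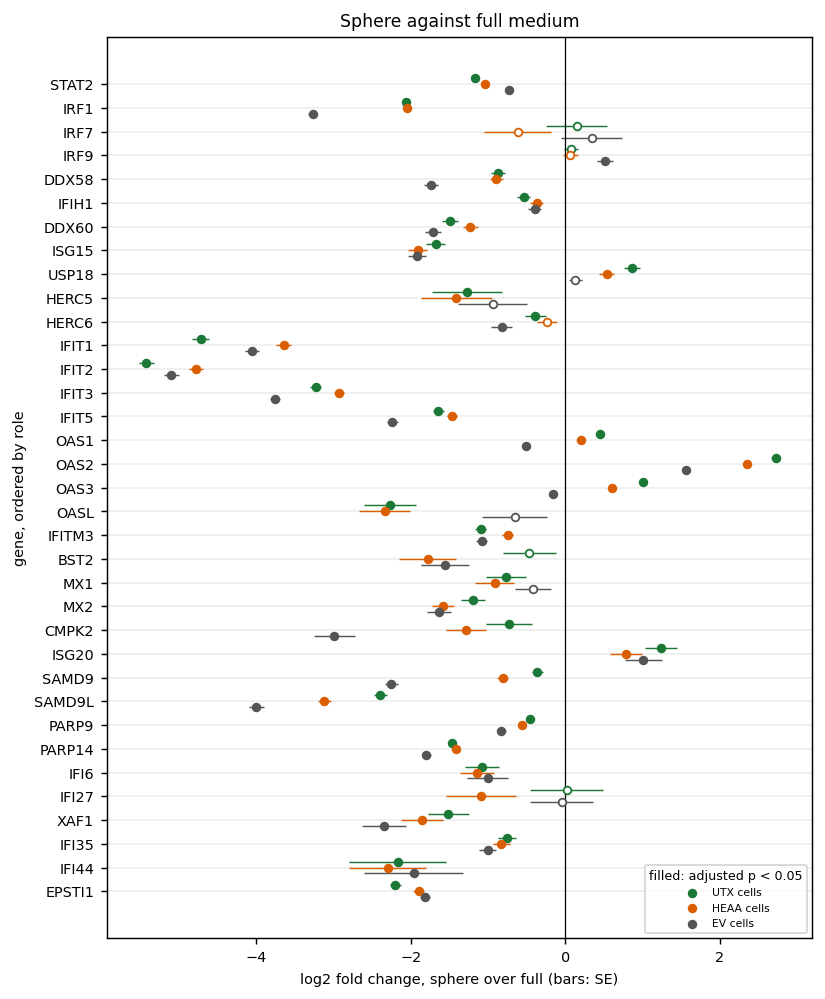
Log2 fold change of sphere over full medium (horizontal axis, bars are SE) for each tested gene in UTX, HEAA and EV cells, filled where the adjusted p was under 0.05. IFIT2 lies furthest left, between -5.43 and -4.78, followed by IFIT1, and OAS2 lies furthest right, between 1.57 and 2.72.

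With UTX in sphere medium more of the set was higher than lower. UTX_sphere against EV_sphere gave 15 of 35 genes higher and 5 lower (22.8% and 25.6% of all genes, 48.4% either way), with a median of 0.29 against -0.01 over all genes. Without EV_sphere replicate 2 the counts were 16 higher and 5 lower. SAMD9 led the rises, with 96.9, 110 and 91.6 CPM in UTX_sphere, 82.6, 94.9 and 87.0 in HEAA_sphere and 26.1, 28.6 and 21.0 in EV_sphere (UTX over EV 3.95-fold, log2 fold change 1.98 ± 0.08, adjusted p = 1.68e-14). No library of the UTX or HEAA cells reached down to the EV range. Of all 19629 tested genes, 5062 lay above and 5648 below without overlap in UTX_sphere against EV_sphere. In HEAA_sphere against EV_sphere these were 4547 and 4917. SAMD9L had 4.26, 5.42 and 4.22 CPM in UTX_sphere and 1.60, 1.98 and 1.36 in EV_sphere (1.49 ± 0.13). IRF1 had 18.7, 20.4 and 18.6 CPM in UTX_sphere and 11.1, 11.3 and 9.39 in EV_sphere (0.86 ± 0.07, adjusted p = 3.46e-10). IFI6 (1.22 ± 0.28), ISG20 (1.06 ± 0.21), MX2 (0.72 ± 0.18), PARP14 (0.71 ± 0.06), DDX58 (0.52 ± 0.10), IRF9 (0.47 ± 0.09) and STAT2 (0.32 ± 0.05) were also higher. XAF1 passed too at 0.90 ± 0.33, but its groups overlap. Leaving out EV_sphere replicate 1 gave 0.43 and lost the call, leaving out EV_sphere replicate 2 gave 1.60, and the call was also lost without EV_sphere replicate 3, UTX_sphere replicate 1 or UTX_sphere replicate 3.

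The 5 lower genes in UTX_sphere were OAS2, IFIT1, USP18, EPSTI1 and IFITM3. OAS2 had 39.02, 35.9 and 38.7 CPM in UTX_sphere, against 99.3, 102 and 101 in EV_sphere (-1.41 ± 0.04, adjusted p = 6.65e-17). IFIT1 had 0.955, 1.15 and 1.25 CPM in UTX_sphere, against 2.10, 1.84 and 2.01 in EV_sphere (-0.83 ± 0.17). Of the other IFIT genes none passed the test, IFIT2 with 0.31 ± 0.20, IFIT3 with 0.03 ± 0.10 and IFIT5 with 0.18 ± 0.09.

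In full medium the set was divided. UTX_full against EV_full gave 9 of 35 genes higher and 12 lower (28.4% and 29.2% of all genes, 57.7% either way), shares near those of all genes, and the median was 0.01 against 0.04. OASL, an OAS-like protein that binds RIG-I, had 1.19, 2.51 and 1.48 CPM in UTX_full and 0.354, 0.352 and 0.447 in EV_full (2.12 ± 0.31, adjusted p = 5.08e-06). The ISRE complex genes were higher, STAT2 with 110, 109 and 113 CPM in UTX_full and 64.9, 67.4 and 63.2 in EV_full (0.76 ± 0.05), and IRF9 with 12.8, 15.5 and 14.2 in UTX_full and 7.30, 7.62 and 7.72 in EV_full (0.90 ± 0.10). IFI6 (1.29 ± 0.21), ISG20 (0.83 ± 0.25) and IFIT2 (0.63 ± 0.05) were higher as well. The other 3 OAS genes were lower. OAS2 had 5.23, 6.12 and 5.94 CPM in UTX_full, 14.3, 14.3 and 14.5 in HEAA_full and 33.8, 32.4 and 35.7 in EV_full, and the UTX over EV change was -2.57 ± 0.06 (adjusted p = 6.17e-19). OAS3 changed by -0.99 ± 0.04 and OAS1 by -0.96 ± 0.05. CMPK2 (-1.53 ± 0.23), USP18 (-1.22 ± 0.10), the protease that removes ISG15, and BST2 (-0.85 ± 0.29) were also lower, BST2 losing the call without EV_full replicate 1, UTX_full replicate 2 or UTX_full replicate 3.

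HEAA comparisons use the same EV libraries as the UTX comparisons, so the values are set side by side. HEAA_sphere against EV_sphere gave 18 genes higher and 3 lower (19.9% and 21.5% of all genes, 41.4% either way), and 17 and 2 without EV_sphere replicate 2. HEAA_full against EV_full gave 14 higher and 11 lower (23.2% and 25.3%, 48.5% either way). SAMD9 was 1.80 ± 0.08 higher in HEAA_sphere and 1.98 ± 0.08 higher in UTX_sphere than in EV_sphere, and IRF1 was 1.04 ± 0.06 and 0.86 ± 0.07 higher. In full medium OASL was 2.07 ± 0.31 higher with HEAA and 2.12 ± 0.31 higher with UTX, and OAS2 changed by -1.24 ± 0.05 with HEAA and -2.57 ± 0.06 with UTX. IFIT1 in full medium changed by -0.69 ± 0.06 with HEAA and -0.16 ± 0.06 with UTX, the UTX call being lost without EV_full replicate 3, UTX_full replicate 1 or UTX_full replicate 3.

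Tested directly, UTX and HEAA cells differed at fewer genes. KDM6A was higher in the HEAA cells than in the UTX cells in both media, so the form and the level of UTX cannot be told apart. UTX_full against HEAA_full gave 5 of 35 higher and 7 lower (8.95% and 12.4% of all genes, 21.4% either way). UTX_sphere against HEAA_sphere gave 3 higher and 6 lower (8.87% and 11.2%, 20.0% either way), and 5 in all without UTX_sphere replicate 2. OAS2 was lower with UTX in both media (-1.33 ± 0.07 in full and -0.96 ± 0.04 in sphere medium). STAT2 and IRF9 were higher with UTX in both, STAT2 with 110, 109 and 113 CPM in UTX_full against 85.9, 86.4 and 85.7 in HEAA_full (0.36 ± 0.05), and IRF9 by 0.39 ± 0.09 in full and 0.41 ± 0.09 in sphere medium. The STAT2 difference in sphere medium was 0.23, and 0.14 with the call lost without UTX_sphere replicate 2. IFIT1 had opposite signs, 0.53 ± 0.06 in full medium and -0.55 ± 0.18 in sphere medium, and the sphere call was lost without UTX_sphere replicate 1 or 2 or HEAA_sphere replicate 1 or 2. SAMD9 did not pass in sphere medium (0.18 ± 0.07, adjusted p = 0.0978).

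The change with UTX differed between the media, as measured by the interaction, which is the log2 fold change of UTX over EV in sphere medium minus that in full medium. At an adjusted p under 0.05 by edgeR it was positive for 13 of 35 genes and negative for 5 (21.1% and 16.2% of all genes, 37.3% either way). Without EV_sphere replicate 2 these counts were 15 and 4. KDM6A was itself higher in sphere than in full medium in the UTX cells and in the HEAA cells. The part of that level in the interactions was not tested. The interaction is given below for single genes. It was 1.89 ± 0.11 for SAMD9 (adjusted p = 1.15e-11), 1.61 ± 0.15 for SAMD9L and 1.21 ± 0.08 for IRF1. In IRF1 the sign itself differed, since the gene was 0.86 ± 0.07 higher in UTX_sphere and changed by -0.35 ± 0.04 in UTX_full. For OAS3 it was 1.16 ± 0.05, with 207, 211 and 208 CPM in UTX_sphere against 188, 182 and 188 in EV_sphere, and 107, 103 and 102 in UTX_full against 205, 206 and 210 in EV_full. STAT2 (-0.45 ± 0.07) and IRF9 (-0.44 ± 0.13) had the smaller change in sphere medium, IRF9 losing the call without EV_sphere replicate 2. At the same threshold the interaction with HEAA was positive for 16 genes and negative for 3 (18.7% and 14.3% of all genes, 33.0% either way). Without EV_sphere replicate 2 the counts were 17 and 2. The HEAA interaction was 1.45 ± 0.11 for SAMD9, 1.22 ± 0.08 for IRF1 and 0.76 ± 0.05 for OAS3.

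**Figure D3:**
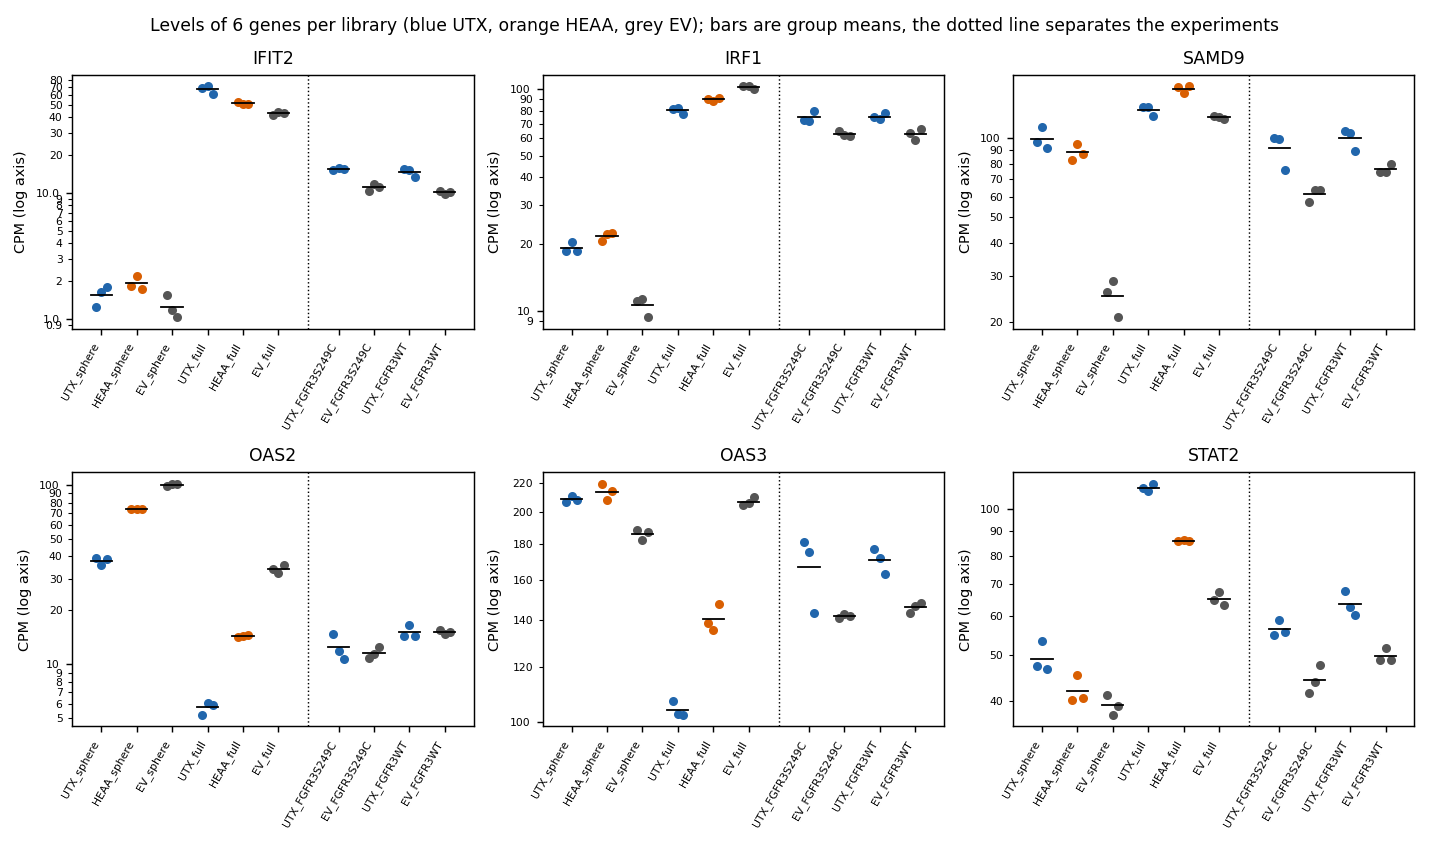
CPM in each library on a log axis for 6 genes, one panel per gene, with UTX in blue, HEAA in orange and EV in grey, bars at group means and a dotted line between the 2 experiments, whose levels are not comparable. SAMD9 in EV_sphere (21.0 to 28.6) and OAS2 in UTX_full (5.23 to 6.12) each lie below every other group of the medium experiment.

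Beside either form of FGFR3, in full medium, UTX was mostly associated with higher levels. UTX_FGFR3S249C against EV_FGFR3S249C gave 14 of 35 genes higher and 3 lower (12.9% and 8.62% of all 19399 genes, 21.5% either way), with a median of 0.20 against -0.01. Without EV_FGFR3S249C replicate 1 the counts were 12 and 2, and without UTX_FGFR3S249C replicate 3 they were 17 and 3. UTX_FGFR3WT against EV_FGFR3WT gave 15 higher and 2 lower (9.06% and 6.01%, 15.1% either way), with a median of 0.30 against 0.00. There the total of 17 became 10 without UTX_FGFR3WT replicate 2 and 11 without EV_FGFR3WT replicate 3.

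The changes were small beside those of the medium. OASL had 1.14, 1.24 and 1.53 CPM in UTX_FGFR3S249C against 0.267, 0.754 and 0.718 in EV_FGFR3S249C (1.17 ± 0.28), and 2.16, 2.19 and 2.26 in UTX_FGFR3WT against 0.647, 0.879 and 0.789 in EV_FGFR3WT (1.5 ± 0.26, adjusted p = 0.000951). IFIT2 had 15.4, 15.9 and 15.5 CPM in UTX_FGFR3S249C against 10.5, 11.8 and 11.1 in EV_FGFR3S249C (0.49 ± 0.07), and 15.5, 15.3 and 13.5 in UTX_FGFR3WT against 10.4, 9.86 and 10.3 in EV_FGFR3WT (0.54 ± 0.07). Neither pair of groups overlaps for either gene. Of all 19399 genes, 3497 lay above and 3087 below without overlap beside S249C, and 3582 and 3141 beside wild type FGFR3. IFIH1 was 0.47 ± 0.09 and 0.60 ± 0.09 higher, SAMD9 0.58 ± 0.09 and 0.39 ± 0.09, STAT2 0.35 ± 0.06 in both, IRF1 0.26 in both, and IFIT3 0.41 ± 0.08 and 0.38 ± 0.08, in each case beside S249C and then beside wild type FGFR3. The SAMD9 call beside wild type FGFR3 was lost without UTX_FGFR3WT replicate 2. IRF9 and ISG20 passed beside S249C, at 0.70 ± 0.15 and 1.03 ± 0.22, and had 0.37 ± 0.15 and 0.54 ± 0.22 beside wild type FGFR3 without passing. CMPK2 was lower in both, with 1.07, 1.17 and 0.998 CPM in UTX_FGFR3S249C against 2.37, 2.18 and 1.97 in EV_FGFR3S249C (-1.01 ± 0.18), and so was BST2 (-0.94 ± 0.15 beside S249C and -0.64 ± 0.16 beside wild type FGFR3, where the call was lost without EV_FGFR3WT replicate 1). OAS2, which was lower with UTX in the medium experiment, had 14.7, 11.9 and 10.8 CPM in UTX_FGFR3S249C against 10.9, 11.4 and 12.4 in EV_FGFR3S249C, and 14.5, 16.6 and 14.3 in UTX_FGFR3WT against 15.6, 14.8 and 15.1 in EV_FGFR3WT. These groups overlap and OAS2 did not pass (adjusted p = 0.518 and 0.988).

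Over the 4 UTX against EV comparisons, which share no library, STAT2 was the only gene of the set called higher in all, and none was called lower in all. How many of all tested genes were called alike in all 4, or higher in 1 and lower in another, was not computed. Without UTX_FGFR3S249C replicate 3 DDX60 and PARP14 were called higher in all as well, and without EV_FGFR3WT replicate 2 IRF9 was. Without UTX_FGFR3WT replicate 2 IFIT1 was called lower in all 4. DDX58, EPSTI1, IFIT3, IFITM3, IRF1, OAS1 and OAS3 were called higher in at least 1 and lower in at least 1 other. These 7 were joined by IFIT5 without EV_sphere replicate 2 or UTX_sphere replicate 2, and by CMPK2 without UTX_sphere replicate 1 or 2. HERC6 joined them without EV_FGFR3WT replicate 2, EV_FGFR3S249C replicate 1 or 3, or UTX_FGFR3S249C replicate 3. OAS1, for example, changed by -0.96 ± 0.05 in full medium of the medium experiment, where it had 26.4, 28.8 and 26.6 CPM in UTX_full against 54.6, 50.4 and 53.6 in EV_full, and by 0.31 ± 0.08 beside wild type FGFR3, where it had 26.9, 26.0 and 23.8 in UTX_FGFR3WT against 21.0, 20.7 and 20.3 in EV_FGFR3WT. That OAS1 call was lost without EV_FGFR3WT replicate 3, UTX_FGFR3WT replicate 1 or UTX_FGFR3WT replicate 2. Vectors, selection, kit and FGFR3 all differ between those 2 experiments and cannot be told apart.

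**Figure D4:**
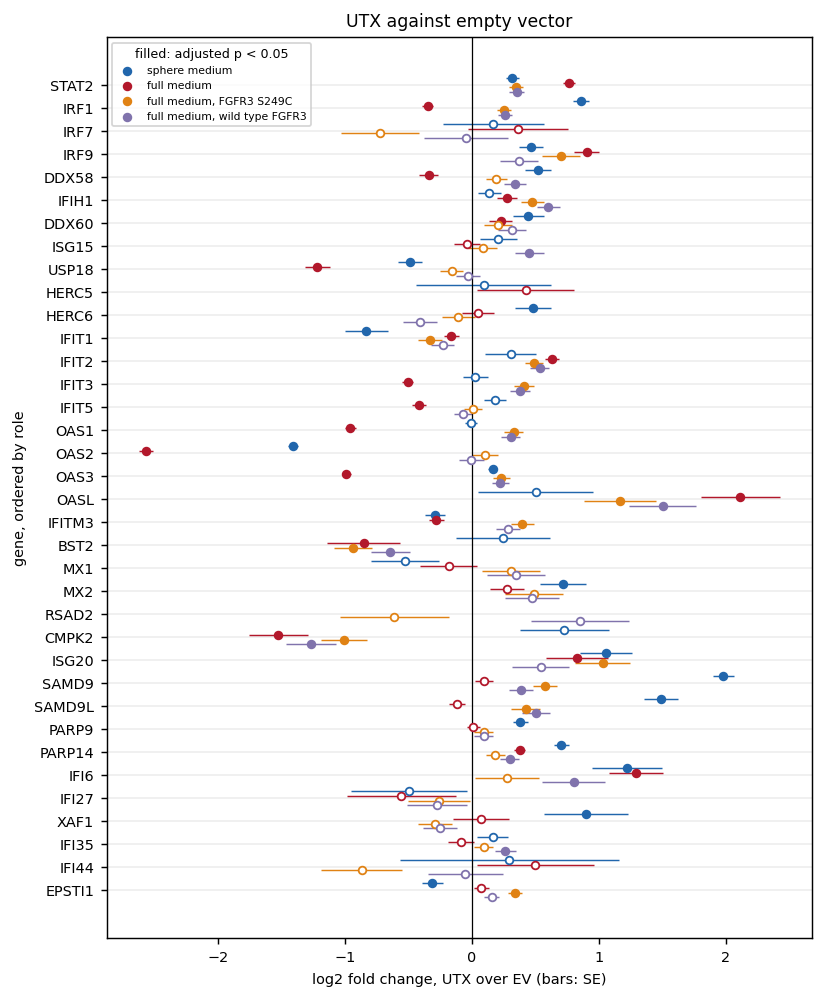
Log2 fold change of UTX over EV (horizontal axis, bars are SE) for each tested gene in sphere medium, in full medium and beside FGFR3 S249C or wild type FGFR3, filled where the adjusted p was under 0.05. STAT2 is filled and to the right of 0 in all 4, and OAS2 spans -2.57 in full medium to 0.11 beside FGFR3 S249C.

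Few of the genes passed the test between the 2 forms of FGFR3, at shares near those of all genes when counted either way. FGFR3 itself had 2322 ± 110 CPM in EV_FGFR3S249C and 1301 ± 75 in EV_FGFR3WT (0.84 ± 0.05), and 2588 ± 44 in UTX_FGFR3S249C and 1243 ± 47 in UTX_FGFR3WT (1.06 ± 0.05), so the form and the level of FGFR3 cannot be told apart. EV_FGFR3S249C against EV_FGFR3WT gave 0 of 35 genes higher and 4 lower (4.31% and 6.45% of all genes, 10.8% either way) by edgeR. At an unadjusted p under 0.05 1 gene was higher and 6 were lower, and DESeq2 called 0 higher and 4 lower. The share of all genes at an unadjusted p was not computed, here or for the comparisons below. The 4 genes were IFIT1, OAS2, EPSTI1 and SAMD9, with IFIT1 at 7.63, 6.82 and 6.46 CPM in EV_FGFR3S249C against 9.48, 9.17 and 9.19 in EV_FGFR3WT (-0.41 ± 0.09, adjusted p = 0.00984). The count was 2 without EV_FGFR3S249C replicate 1 or without any single EV_FGFR3WT library. SAMD9 (-0.31 ± 0.10, adjusted p = 0.0499) lost the call without any 1 of the 6 libraries, under RLE factors, without the low-count filter and with the replicate block, at adjusted p values of 0.0501 to 0.172. OAS2 (-0.39 ± 0.10, adjusted p = 0.0234) kept it in the fit without EV_FGFR3S249C replicate 3 and lost it without any other of the 6 libraries. IFIT1 and EPSTI1 kept the call in every one of these fits. UTX_FGFR3S249C against UTX_FGFR3WT gave 0 higher and 1 lower (1.71% and 1.34%, 3.05% either way), again IFIT1, with 5.55, 5.43 and 5.63 CPM in UTX_FGFR3S249C against 7.44, 8.85 and 7.49 in UTX_FGFR3WT (-0.51 ± 0.09). There 1 gene was higher and 11 lower at an unadjusted p under 0.05, again with no share of all genes to set beside them. The count at an adjusted p was 0 without UTX_FGFR3WT replicate 2 and 2 without UTX_FGFR3WT replicate 3 or UTX_FGFR3S249C replicate 1. It was again 1 without UTX_FGFR3S249C replicate 3. The interaction of UTX with the form of FGFR3 called 0 genes by edgeR and by DESeq2 (0.572% and 0.113% of all genes, 0.686% either way), with 1 positive and 2 negative at an unadjusted p under 0.05, and the smallest adjusted p was 0.375. It also called 0 without EV_FGFR3S249C replicate 1 or UTX_FGFR3S249C replicate 3.

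**Figure D5:**
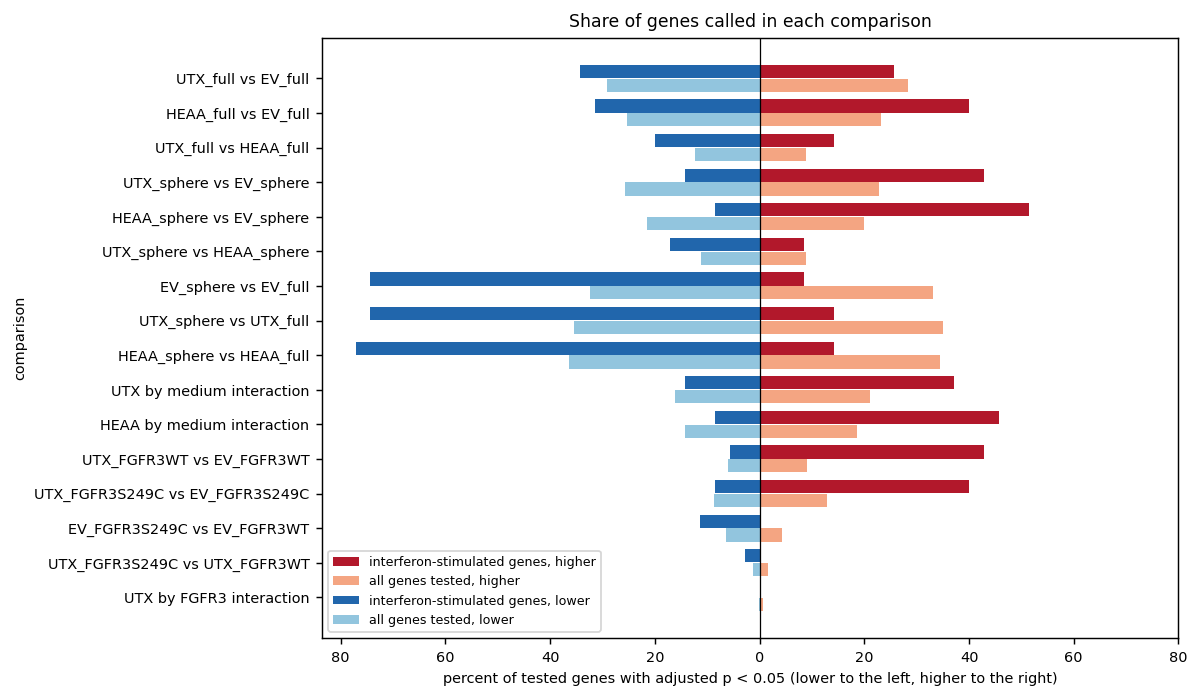
Percent of the 35 tested genes (dark bars) and of all tested genes (pale bars) called higher (right) or lower (left) at an adjusted p under 0.05 in each comparison, and positive or negative for the interactions. The sphere against full comparisons have 74.3% to 77.1% of the set lower, against 32.4% to 36.3% of all genes.

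The rest of the pathway was read from lists of ligands, receptors, kinases, sensors, inhibitors and further induced genes. Of 10 interferon ligand genes only IFNE, an epithelial type I interferon, was tested. It had 1.88 ± 0.18 CPM in UTX_full and 0.653 ± 0.092 in EV_full (1.53 ± 0.21), and 0.503 ± 0.061 in UTX_sphere and 0.157 ± 0.054 in EV_sphere (1.66 ± 0.35). In EV_sphere against EV_full it fell by 2.02 ± 0.31. Of the 6 receptor genes, 3 were higher and 2 lower in EV_sphere against EV_full, where 33.1% of all genes were higher and 32.4% lower. The interferon gamma receptor chains rose, IFNGR1 with 162 ± 0.96 CPM in EV_sphere and 46.0 ± 2.0 in EV_full (1.82 ± 0.04) and IFNGR2 with 151 ± 3.0 in EV_sphere and 41.2 ± 0.46 in EV_full (1.87 ± 0.04), while IFNAR2, a chain of the type I receptor, fell by 0.64 ± 0.07.

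Of 12 tested nucleic acid sensors and adaptors, 6 were higher and 3 lower in EV_sphere against EV_full (33.1% and 32.4% of all genes, 65.5% either way). IFI16, a DNA sensor, had 307 ± 15 CPM in EV_sphere and 59.4 ± 1.5 in EV_full (2.37 ± 0.04), and TLR3, an endosomal RNA sensor, had 2.08 ± 0.28 in EV_sphere and 20.9 ± 0.68 in EV_full (-3.33 ± 0.10). Beside FGFR3, 7 of these 12 were higher and 0 lower with UTX and S249C (12.9% and 8.62% of all genes), and 6 higher and 0 lower with UTX and wild type FGFR3 (9.06% and 6.01%). Among them STING1, the adaptor of cytosolic DNA sensing, had 64.2 ± 3.4 CPM in UTX_FGFR3S249C and 28.8 ± 2.2 in EV_FGFR3S249C (1.16 ± 0.06), and AIM2, another DNA sensor, had 2.39 ± 0.063 in UTX_FGFR3S249C and 0.821 ± 0.15 in EV_FGFR3S249C (1.54 ± 0.17). In the medium experiment the list went both ways with UTX. In UTX_full against EV_full STING1 rose by 0.38 ± 0.06, while CGAS changed by -0.65 ± 0.10 and AIM2 by -0.49 ± 0.14. That AIM2 call was lost without UTX_full replicate 1. In UTX_sphere against EV_sphere TLR3 rose by 0.77 ± 0.14 and IFI16 changed by -0.72 ± 0.04.

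Of 32 tested genes in the list of further interferon-induced genes, 1 was higher and 28 were lower in EV_sphere against EV_full (33.1% and 32.4% of all genes), with a median of -0.93 against -0.03 over all genes. TRIM22, an antiviral ubiquitin ligase, fell by 4.09 ± 0.08, and RTP4, a chaperone of G protein-coupled receptors, by 3.99 ± 0.24. With UTX, 22 were higher and 5 lower in sphere medium (22.8% and 25.6% of all genes), and 14 higher and 11 lower in full medium (28.4% and 29.2%). Beside FGFR3 S249C 16 were higher and 1 lower (12.9% and 8.62%), and beside wild type FGFR3 15 were higher and 1 lower (9.06% and 6.01%). GBP3 rose by 1.37 ± 0.08 and GBP2 fell by 1.01 ± 0.07 in UTX_sphere against EV_sphere, both being interferon-induced GTPases. TRIM22 had 86.4 ± 3.1 CPM in UTX_full and 27.3 ± 0.41 in EV_full (1.66 ± 0.04). Of the inhibitors, SOCS1 rose by 1.85 ± 0.21 and SOCS3 fell by 1.06 ± 0.10 in EV_sphere against EV_full.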

How the data were processed

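RNA-seq values for 30 libraries were estimated counts (expected counts) per gene, deposited by the authors without scaling and already whole. The submitters' processing notes name Salmon 0.8, DESeq2 and the builds hg19 and GRCh37, and the annotation release and the row filter of the second table are not stated there. Each experiment was fitted alone in R 4.3.3 with edgeR 4.0.16 (low genes removed by filterByExpr, TMM scaling, 1 mean per group, quasi-likelihood F tests, Benjamini-Hochberg over 19629 and 19399 genes, adjusted p under 0.05). Biological coefficients of variation were 4.58% and 6.05%. CPM use TMM factors. SE was taken as log2 fold change divided by root F. The fit was also run on simulated counts, and the outcome is not given here. Those counts held no library standing apart from its group, unlike these data. Named genes are called genes with at least 1 CPM over both groups, ranked by fold change (the 8 largest each way in the main comparisons, the 4 largest in the others), with KDM6A and the 2 largest each way from each pathway list. Genes under 1 CPM or outside these ranks were named after their values were seen. Members and lists were chosen with earlier results of these data known. Positions are from GENCODE v29 (GRCh38) and promoter windows from RefSeq (GRCh38.p14), neither the build of the notes. Alternatives were DESeq2 1.42.0, RLE factors, no low-count filter, a replicate block and each library left out.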

Additional observations from a re-analysis of the deposited data

Results flagged for a closer look

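The following genes changed by a different amount in sphere and in full medium by the interaction test of the edgeR fit, given as the log2 fold change over EV in sphere medium minus that in full medium. Both interactions use the same EV libraries.

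Among the SAMD9 and nucleotide genes, CMPK2 had 2.26 with UTX and 1.71 with HEAA, at levels of at most 2.61 CPM. SAMD9 had 1.89 with UTX and 1.45 with HEAA, and SAMD9L had 1.61 and 0.881 in that order. Among the transcription factors, IRF1 had 1.21 with UTX and 1.22 with HEAA, STAT2 had -0.446 and -0.311, and IRF9 had -0.438 and -0.45. Among the OAS genes, OAS1 had 0.952 with UTX and 0.708 with HEAA, OAS2 had 1.16 and 0.795, and OAS3 had 1.16 and 0.76. OASL, at low levels, had -1.61 with UTX and -1.68 with HEAA. Without EV_sphere replicate 3 OASL lost both calls, at -1.10 and -1.15, and without EV_sphere replicate 2 IRF9 lost both, at -0.33 and -0.33. The OASL call with UTX was also lost without UTX_sphere replicate 1 or 3, EV_full replicate 1 or 2, or UTX_full replicate 2, and the IRF9 call with HEAA without EV_full replicate 1 or HEAA_full replicate 2 or 3.

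In the IFIT family, IFIT3 had 0.533 with UTX and 0.831 with HEAA, IFIT5 had 0.595 and 0.771, and IFIT1 passed with UTX alone, at -0.67, though the difference between the UTX and HEAA interactions was not tested. DDX58 had 0.864 with UTX and 0.844 with HEAA, USP18 had 0.734 and 0.406, PARP9 had 0.37 and 0.271, and PARP14 had 0.331 and 0.388. EPSTI1 passed with UTX at -0.387. With HEAA, DDX60 (0.483), HERC6 (0.591) and IFITM3 (0.337) passed.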

How the results depend on the processing

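Across the alternatives no called gene changed direction. Of 357 called or named gene results, 66 lost the call under at least 1 alternative. The counts of genes called stayed within 1.5 times the main count under RLE factors, no low-count filter and DESeq2. With each library left out in turn, the total called ranged from 5 to 8 for UTX_sphere against HEAA_sphere (main count 9, with 5 without UTX_sphere replicate 2), from 10 to 18 for UTX_FGFR3WT against EV_FGFR3WT (17), from 2 to 5 for EV_FGFR3S249C against EV_FGFR3WT (4) and from 0 to 2 for UTX_FGFR3S249C against UTX_FGFR3WT (1), and the cause was not tested. Whether the replicate numbers pair the samples cannot be settled from these counts. Same-numbered samples' deviations correlated at -0.0636 to 0.0633 in the medium experiment and -0.0862 to 0.156 in the FGFR3 experiment. The 0.156 was between UTX_FGFR3WT replicate 3 and UTX_FGFR3S249C replicate 3, where differently numbered pairs reached at most 0.0912. With the replicate numbers as a block the counts were 16 for UTX_FGFR3WT against EV_FGFR3WT, 3 for EV_FGFR3S249C against EV_FGFR3WT and 29 for EV_sphere against EV_full, all within 1.5 times the main counts. Precision is lower for genes with few counts: in EV_sphere against EV_full the SE was 0.40 for IRF7, at no more than 0.377 CPM in any group of the medium experiment, and 0.05 for IRF1.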
